A study of Drosophila melanogaster with 8 samples.

Results

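The wild-type response to 4 h of starvation was described from 4 of the 8 sequenced libraries. They were chosen by their labels alone: 2 libraries of larvae labelled fed and 2 of larvae labelled as starved for 4 h, all of the Oregon R strain (OreR, a standard laboratory wild type) and all from larval fat body of Drosophila melanogaster. The other libraries were 2 of OreR larvae starved for 16 h and 2 of larvae homozygous for the allele CPSF5H11 starved for 16 h. The wild-type 16 h libraries are set beside the results where they help to read them, and the mutant libraries entered the estimate of the spread, the scaling and the filter on low values. The labels say that flies were raised at 25°C, and they give no larval age, sex or starvation medium. Replicates were numbered in the order of deposit, and nothing says that they were separate animals or cultures, so a p-value here measures how far these samples spread, possibly for technical reasons alone.

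Fat body is the insect counterpart of liver and adipose tissue. It stores fat, glycogen and protein and secretes most proteins of the blood, and its nutrient sensors, the insulin and TOR pathways, hold growth and autophagy in opposite states. While amino acids are plentiful, TOR drives the making of ribosomes. When they run short, that synthesis stops, the cell digests part of itself in lysosomes, and transcription factors such as FOXO and REPTOR switch on other genes. Late in larval life the same tissue also responds to ecdysone, the moulting steroid, and begins to make storage proteins for metamorphosis.

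Values below are scaled TPM, a length-adjusted share of transcripts divided by a factor for each library, unless a share is named. A gene rose or fell where limma gave an adjusted p (Benjamini-Hochberg over all genes tested) under 0.05, and each log2 difference is on the log2(scaled TPM + 1) scale with its standard error (SE), a scale on which weakly expressed genes appear to change less than they did. Of 8332 genes tested, 1759 rose (21.1%) and 2220 fell (26.6%), together 47.8%, and the median difference was -0.03. The split of calls depended on the scaling. It was 812 up and 2976 down without scaling, where the median of all genes was -0.51, 1008 and 2854 after rescaling over coding genes, and 1813 and 1887 with quantile normalization. The number that rose also fell to 1108 without fed replicate 1 and to 1068 without fed replicate 2. Replicates were closer together in fed than in starved larvae, with a median absolute log2 difference of 0.15 between the fed libraries and 0.30 between the 4 h libraries.

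The tissue label was checked first. Of 15 tested fat body markers, 7 rose and 1 fell, and their summed level was 21463 and 39810 in the fed libraries against 55355 and 96605 at 4 h. The rises rested on single libraries, since 1 remained without fed replicate 1 and 2 without 4 h replicate 2. Markers of other tissues were also present and moved with feeding. Summed salivary gland markers were 1020 and 3244 in fed larvae against 23553 and 25383 at 4 h. Summed muscle markers were 284 and 191 against 82.3 and 54.6, summed midgut markers 150.3 and 251 against 41.5 and 69.7, and summed haemocyte markers 437 and 372 against 93.8 and 60. The haemocyte sum was nearly all collagen IV (vkg and Col4a1) in fed larvae, which fat body makes too, and among the 10 markers tested 4 rose and 2 fell (median 0.85). In bulk samples fewer cells of a type and less RNA per cell cannot be told apart, and the part of other tissues in the results below was not tested. Summed markers of the male germ line, whose larval gonad lies within the fat body, set replicates apart rather than groups (31.5 and 1.39 in fed, 51.2 and 12.2 at 4 h).

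The make-up of the coding transcriptome changed at its top. Ribosomal proteins took 28.2% and 26.3% of the summed TPM of nuclear coding genes in the fed libraries and 17.7% and 17.2% in the starved ones. The storage protein genes took 6.16% and 11.8% in fed larvae and 14.6% and 19.5% at 4 h, so that the groups did not overlap. The 12 most abundant genes of fed larvae held 18.6% and 23% of coding TPM in fed larvae and 23% and 22.4% at 4 h. The 12 most abundant of starved larvae held 9.54% and 17.3% in fed larvae and 35.9% and 42.5% at 4 h. They were picked by their 4 h level, which favours a higher share there. First among these 12 of starved larvae stood CG34166, an uncharacterised gene. It had 0.668% and 0.882% in the fed libraries against 7.17% and 7.74% in the starved ones. Next came Obp99b, a secreted odorant-binding protein of the blood, whose share went from 0.322% and 0.691% to 5.25% and 6.5%. In scaled TPM, CG34166 rose by 3.77 ± 0.47 on the log2 scale (limma adjusted p = 0.0012) and Obp99b by 4.12 ± 0.51 (adjusted p = 0.0012). CG42586 and CG31775, also among the 12, had identical values in every library and cannot be told apart by these reads.

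Nplp2, a neuropeptide-like precursor found as an apolipoprotein of the larval blood, went the other way. It was the most variable of the abundant genes, with 10455 and 8599 in the fed libraries and 1582 and 27.8 at 4 h. The starved libraries lay far apart from each other and below both fed ones. Its log2 difference was -5.47 ± 1.67 (limma adjusted p = 0.036), and it did not pass when fed replicate 1 was left out (adjusted p = 0.13) or fed replicate 2 (adjusted p = 0.12).

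**Figure D1:**
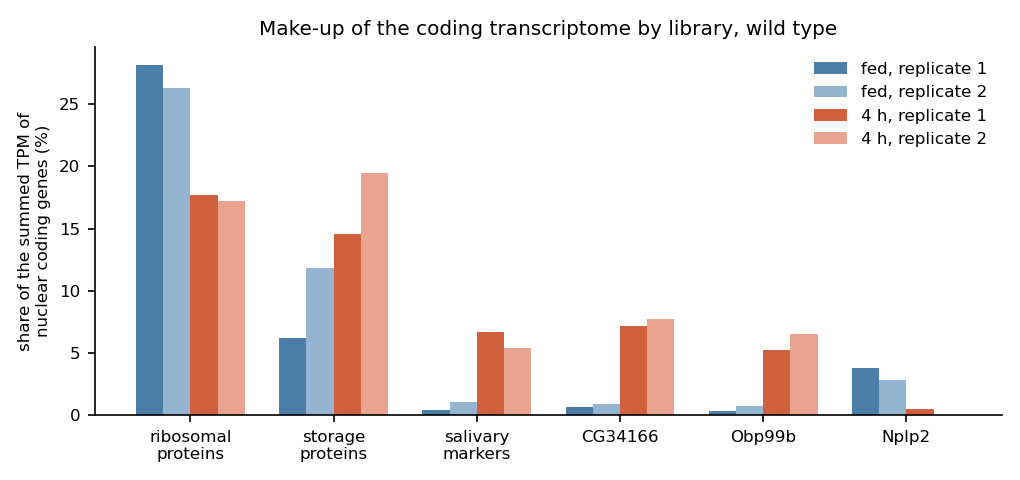
Share of the summed TPM of nuclear coding genes (vertical axis, percent) taken by ribosomal proteins, storage proteins, salivary gland markers and single genes, 1 bar per library, with fed libraries in blue and 4 h libraries in red. Ribosomal proteins went from 28.2% and 26.3% to 17.7% and 17.2%, while CG34166 went from under 1% to 7.17% and 7.74%.

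The deepest coordinated fall was of genes for the nucleolus, the site where ribosomes are assembled. Of 62 ribosome biogenesis genes tested, 59 fell and 1 rose, with a median log2 difference of -3.59 beside -0.03 over all genes, and 59 fell whichever of the 4 libraries was left out and under every scaling tried. The machinery that transcribes ribosomal RNA and tRNA fell with them: 17 of 19 subunits of RNA polymerases I and III fell and none rose, with a median of -2.55. Polr1A, the largest subunit of polymerase I, was at 36 and 36.4 in fed libraries and at 1.35 and 0.947 in starved ones. Its log2 difference was -4.12 ± 0.14 (limma adjusted p = 3.9e-05), and its 16 h values were 1.62 and 1.59. Polr1D, an assembly subunit that polymerases I and III share, went from 54.5 and 52.3 to 3.64 and 2.41.

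The guide RNAs of ribosomal RNA modification followed. Small nucleolar RNAs (snoRNAs) direct methylation and pseudouridylation of ribosomal RNA, and in flies many are cut from the introns of Uhg genes, which are noncoding hosts. Of 215 snoRNAs and related RNAs tested, 127 fell and 1 rose (median -1.44), and 84 fell without fed replicate 1. The hosts fell too. Uhg2 was at 71.2 and 75.6 in fed and at 3.52 and 2.8 in starved libraries, a log2 difference of -4.17 ± 0.21 (limma adjusted p = 5.0e-05), and Uhg5 went from 72.2 and 55 to 4.32 and 1.45. Of the guides, snoRNA:Me18S-A1576, which lies in Uhg2, had 232 and 215 against 6.55 and 13.2. Guide and host overlap in the genome, so their reads cannot be fully told apart. One annotated fragment of ribosomal RNA precursor, pre-rRNA:CR45846, had 188 and 61.7 in fed larvae and was listed at 0 in both 4 h libraries. Over the same samples, the 115 genes annotated as ribosomal RNA, left after depletion, took 7.28% and 7.32% of all TPM in fed larvae and 13.5% and 14.2% at 4 h. That class was not split into mature RNA, precursors and fragments.

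The ribosome's own proteins moved little by comparison. Of 88 ribosomal protein genes tested, 6 fell and none rose (median -0.13), but 56 fell after rescaling over coding genes, so the scaling sets this count. The largest falls were not of ribosome constituents. RpLP0-like, a paralogue of a stalk protein that acts in assembly of the large subunit, had 89.5 and 92.6 in fed and 4.14 and 3.53 in starved larvae (log2 difference -4.25 ± 0.14, limma adjusted p = 3.9e-05). RpL24-like, which also travels with the precursor particle, went from 154 and 136 to 29.9 and 36.7. Among the constituents RpS3A, with 1184 and 1070 against 724 and 755, passed with all libraries (log2 difference -0.61 ± 0.19), and its call was lost whichever of the 4 libraries was left out.

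**Figure D2:**
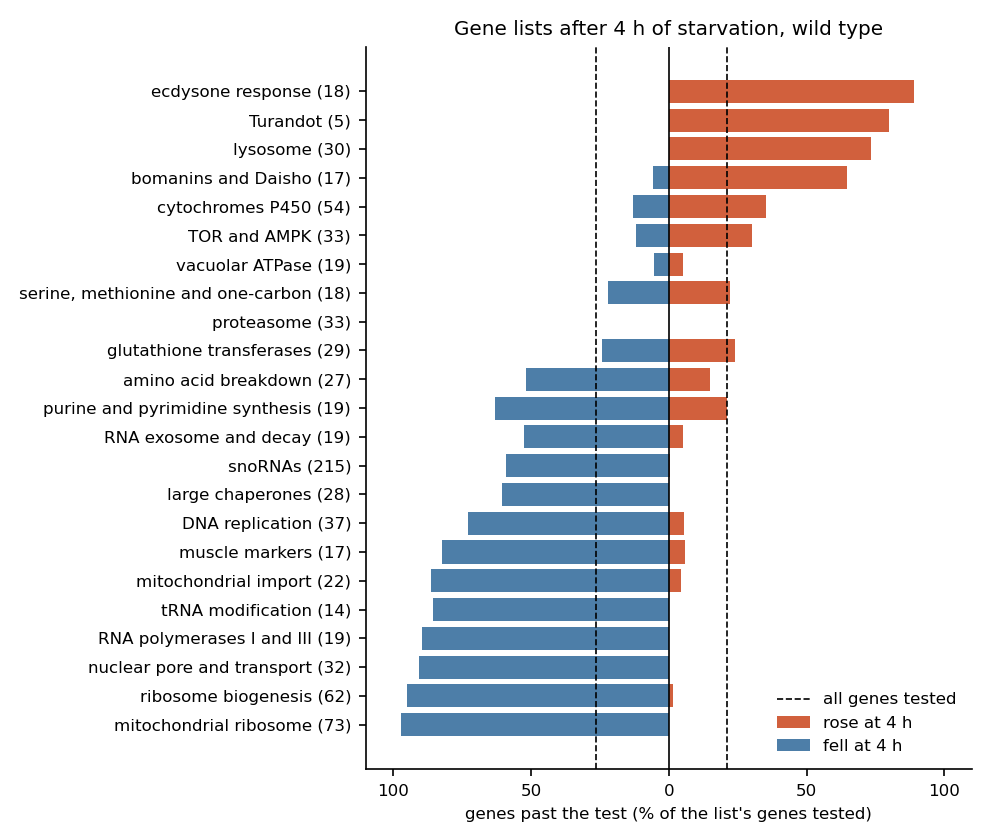
Share of each gene list that rose (red, to the right) or fell (blue, to the left) after 4 h of starvation, in percent of its genes tested, with the number tested in brackets. Dashed lines mark the share of all genes tested, 21.1% up and 26.6% down.

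Translation factors fell in part. Of 49, 28 fell and 1 rose, and 17 fell without fed replicate 2. eIF6, which keeps new large subunits from joining small ones until they are mature, had 68.1 and 67.1 in fed and 4.87 and 4.71 in starved libraries, the deepest fall in the list (-3.57 ± 0.16, limma adjusted p = 4.2e-05). eEF1delta, an exchange factor of elongation, went from 439 and 417 to 88.7 and 66.6. The genes that supply charged tRNA showed the same direction: all 18 cytosolic aminoacyl-tRNA synthetases fell (median -2.09), 12 of 14 tRNA modification genes fell and none rose, and 13 of 24 tRNA genes in the test fell. Those 24 include identical copies, with 16 distinct sets of values among them, and 2 of the 6 largest falls were of mitochondrial tRNAs. Nsun2, a tRNA cytosine methyltransferase, had 31.1 and 35.3 against 2.26 and 1.71 (-3.52 ± 0.15, limma adjusted p = 3.9e-05). Most tRNA genes were not tested, and the library kit is not made for RNAs so short.

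Genes for traffic through the nuclear envelope and for the surveillance of RNA fell as well. Of 32 nuclear pore and transport genes, 29 fell and none rose (median -1.45). Ran, the GTPase that gives nuclear transport its direction, had 226 and 259 in fed and 59.6 and 50.1 in starved libraries, and Rcc1, its exchange factor on chromatin, had 33.1 and 31.6 against 4.47 and 2.37. Rcc1 fell by 2.96 ± 0.24 on the log2 scale (limma adjusted p = 2.6e-04). Of 19 genes of the RNA exosome and decay, 10 fell and 1 rose. The falls included core subunits of the exosome, which trims ribosomal RNA precursors: Csl4 had 21.7 and 20 against 1.31 and 0.868 (-3.39 ± 0.17, adjusted p = 5.1e-05), and the nuclease Dis3 had 21.8 and 27.2 against 1.85 and 1.71. For each of these 4 genes the fed and starved values lay well apart, and the 16 h values were close to those at 4 h.

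Most nuclear genes for mitochondrial ribosomes and for respiration fell. Of 73 mitochondrial ribosomal proteins, 71 fell and none rose, with a median of -1.83, and 67 or more fell with any library left out. Of 33 genes of complex I, 31 fell (19 without fed replicate 1), and of 43 genes of complexes II to V with cytochrome c, 36 fell. Of 13 mitochondrial aminoacyl-tRNA synthetases 7 fell, and 3 without fed replicate 1. The mitochondrial genome did not follow in the test: none of its 13 coding genes passed, although their median was -1.02, and its share of all TPM differed between replicates (6.52% and 2.02% in fed, 2.6% and 0.56% at 4 h). srl, the fly counterpart of the PGC-1 coactivators that promote mitochondrial gene expression, had 41.2 and 43 in fed and 1.71 and 0.854 in starved libraries. It fell by 4.27 ± 0.20 on the log2 scale (limma adjusted p = 4.5e-05).

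Genes of mitochondrial import and many of protein folding fell too. Of 22 import genes 19 fell and 1 rose (median -2.17). Tom40, the channel of the outer membrane, went from 38.7 and 34.2 to 3 and 1.92 (-3.45 ± 0.25, limma adjusted p = 1.8e-04). Hsc70-5, the mitochondrial Hsp70 that pulls proteins inward, went from 142 and 159 to 9.77 and 13.9. Of 28 large chaperones of any compartment 17 fell and none rose. Of the 6 largest falls in that list 4 were mitochondrial (Hsp60A, Hsc70-5, mge and Trap1), and some of these are counted among the import genes as well. The cytosolic CCT5 and CCT1, subunits of the ring that folds actin and tubulin, went from 77.9 and 98.7 to 9.26 and 11.6 and from 66.9 and 81.9 to 9.02 and 10.1. Of 9 small heat shock genes in the test, 3 rose (33.3%, beside 21.1% of all genes) and none fell.

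**Figure D3:**
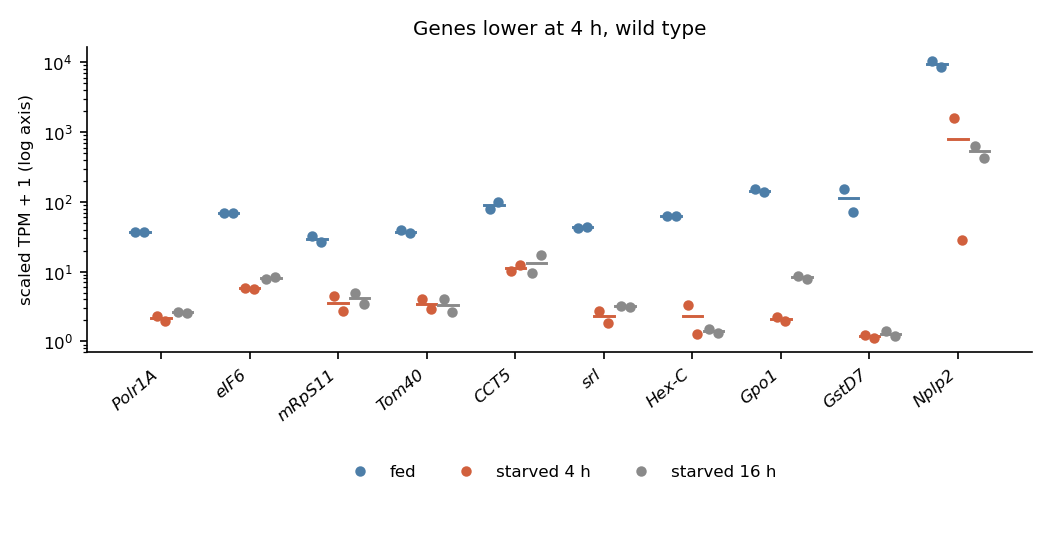
Scaled TPM plus 1 (log axis) of 10 genes that fell at 4 h, with 1 point per library and a line at the mean, for fed (blue), 4 h (red) and 16 h (grey) wild-type larvae. For each gene both fed points lie above both 4 h points, and the 4 h points of Nplp2 lie far apart.

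Most genes of central carbon metabolism fell. All 7 pentose phosphate genes fell (median -1.69), as did 16 of 22 genes of the TCA cycle (8 without fed replicate 1) and 12 of 17 of glycolysis, while 1 in glycolysis rose. The riser was Pdk, the kinase that shuts off pyruvate dehydrogenase, with 4.48 and 4.35 in fed and 24 and 30.3 in starved libraries (2.37 ± 0.37, limma adjusted p = 0.0029). Hex-C, a hexokinase of the fat body, went from 62.1 and 62.2 to 2.35 and 0.284 (-4.93 ± 0.41, adjusted p = 2.8e-04). kdn, citrate synthase, fell by 3.18 ± 0.33 and CG8036, a transketolase, by 2.85 ± 0.32. Gpo1, the mitochondrial glycerol 3-phosphate dehydrogenase, had 149.9 and 137 against 1.25 and 0.993, the third-largest fall of any coding gene (-6.09 ± 0.29, adjusted p = 4.5e-05). At 16 h Gpo1 was at 7.56 and 6.94.

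Single sugar carriers changed in either direction. The glucose carrier homologue sut1 had 187 and 189.6 in fed and 16.5 and 8.97 in starved libraries, a fall of 3.84 ± 0.28 on the log2 scale (limma adjusted p = 1.7e-04), and nebu, another sugar carrier homologue, went from 169 and 114 to 11.4 and 8.05. Tret1-1, the carrier that lets trehalose leave the fat body, rose from 17.7 and 12.3 to 111 and 156 (3.07 ± 0.32, adjusted p = 6.4e-04). Glut1 rose from 0.597 and 0.22 to 6.99 and 9.89. In the same libraries Pepck2, a phosphoenolpyruvate carboxykinase, went from 18.8 and 18.1 to 134 and 290.4, and Mal-A6, a maltase, from 0.128 and 0.223 to 40 and 67.7. Tret1-1 and Pepck2 were the only risers among 16 genes tested of trehalose, glycogen and gluconeogenesis, 12.5% beside 21.1% of all genes. In that list 9 fell (56.2%, beside 26.6%), among them Glyp (log2 difference -2.05) and Pgm1 (-1.60). Of the 10 sugar carriers tested, 3 rose (30%) and 4 fell (40%), beside 21.1% and 26.6% of all genes.

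Of 29 genes of lipolysis and fatty acid oxidation, 7 rose (24.1%) and 6 fell (20.7%), shares near the 21.1% and 26.6% of all genes, and 3 rose without fed replicate 2. The values of single lipid genes follow. whd, the carnitine palmitoyltransferase that admits fatty acids to mitochondria, had 11.3 and 4.99 in fed and 39.7 and 58.5 in starved libraries (2.52 ± 0.38, limma adjusted p = 0.0024), and pdgy, an acyl-CoA synthetase, went from 10.4 and 4.04 to 60.5 and 87.1. The lipid droplet lipase bmm had 1.75 and 0.768 against 12.3 and 7.09, which did not pass with fed replicate 2 left out (adjusted p = 0.068). Baldspot, a fatty acid elongase, fell from 60.1 and 44.5 to 5.18 and 3.69, and mdy, the diacylglycerol acyltransferase that makes triglyceride, from 49.6 and 45.7 to 14.1 and 10.4. Apoltp, the lipid transfer particle that loads circulating lipoprotein, had 85.8 and 73.8 against 10.2 and 6.64 (-3.12 ± 0.29, adjusted p = 4.0e-04).

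Of 19 genes of purine and pyrimidine synthesis 12 fell (63.2%) and 4 rose (21.1%, as over all genes). The 4 that rose are enzymes of the de novo purine pathway, which builds inosine monophosphate step by step. They were grouped after their values were seen. Prat2, which commits to the pathway, had 11.8 and 22.7 in fed and 115 and 216 in starved libraries (3.18 ± 0.52, limma adjusted p = 0.0034). The enzymes of middle steps, Gart and Paics, went from 57.3 and 55.2 to 192 and 360.2 and from 68.8 and 72.5 to 429.7 and 809.5. CG11089, the homologue of the bifunctional enzyme ATIC that closes the ring, went from 42.2 and 42.7 to 660.5 and 1367 (4.45 ± 0.35, adjusted p = 2.3e-04). All 4 rose in each scaling tried. The steps that lead from inosine monophosphate and towards pyrimidines were among the 12 that fell: Adss, which makes the adenine precursor, had 101 and 113 against 7.8 and 8.97, Ctps, CTP synthase, 34.7 and 35.4 against 2.55 and 1.45, and r-l, UMP synthase, 19.6 and 17.7 against 0.983 and 0.976.

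Enzymes of serine synthesis, which feeds carbon and nitrogen to purines, rose. These 3 enzymes were counted in the list of ATF4 targets. Of its 18 genes 5 rose (27.8%) and 1 fell (5.56%), beside 21.1% and 26.6% of all genes, and 12 were not called. CG6287, the dehydrogenase of the first step, had 37.1 and 23.6 in fed and 125 and 180.2 in starved libraries. CG11899, the aminotransferase, went from 9.83 and 3.07 to 70.2 and 169.5. aay, the phosphatase of the last step, went from 2.62 and 3.04 to 63 and 190.1 (4.85 ± 0.61, limma adjusted p = 0.0013). Enzymes of glutamine and proline synthesis also rose. Gs1, a glutamine synthetase, had 51.9 and 78.7 against 574 and 855 (3.43 ± 0.37, adjusted p = 7.4e-04), and P5cr-2, which makes proline, 2.11 and 1.48 against 40.8 and 77.1 (4.36 ± 0.31, adjusted p = 1.5e-04). In the list of amino acid breakdown 14 of 27 genes fell (51.9%) and 4 rose (14.8%). Gs1 and P5cr-2, the synthesis enzymes just given, are among those 4 that rose. Gdh, which releases ammonia from glutamate, had 230.5 and 231 against 28.2 and 28.2, and BckdhA, of branched-chain oxidation, fell by 2.55 ± 0.20.

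Of 33 genes of TOR and amino acid sensing, 10 rose (30.3%) and 4 fell (12.1%), with a median of 0.16. Without scaling 3 rose and 7 fell, so this list's balance depends on the scaling. Lamtor3 and Lamtor2, parts of the lysosomal anchor of TOR, went from 9.56 and 12.4 to 33.3 and 53.1 and from 5.71 and 4.95 to 11 and 16.1. SNF4Agamma, the energy-sensing subunit of AMPK, had 3.78 and 4.23 against 10.9 and 14.5 (1.44 ± 0.18, limma adjusted p = 0.0012). mnd, an amino acid carrier, fell from 21.3 and 16.6 to 3.52 and 2.43, and CG7255, a cationic amino acid carrier homologue, rose from 8.43 and 12.8 to 104 and 117 (3.28 ± 0.24, adjusted p = 1.7e-04).

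Of 31 transcription factors and coregulators of nutrient response, 7 rose (22.6%) and 4 fell (12.9%), beside 21.1% and 26.6% of all genes. Without scaling 1 rose and 9 fell. The values of single members follow. REPTOR-BP, the partner through which REPTOR binds DNA when TOR is low, had 1.53 and 1.91 in fed and 32.4 and 36.2 in starved libraries (3.70 ± 0.16, limma adjusted p = 3.9e-05), and it rose under every scaling. REPTOR itself went from 1.61 and 1 to 4.36 and 3.8, a call not kept without scaling. Myc, which drives ribosome production, had 18.6 and 18.1 against 3.49 and 1.58 (-2.51 ± 0.26, adjusted p = 6.6e-04), while Mnt, which opposes it at the same sites, went from 1.54 and 1.31 to 5.17 and 3.93 (not kept without scaling). Of genes tied to the study's question, Cpsf5, which encodes a subunit of cleavage factor I, had 12 and 10.9 against 6.47 and 3.62 (-1.08 ± 0.24, and no longer past the test with fed replicate 1 left out, adjusted p = 0.069, or fed replicate 2, adjusted p = 0.052), and the autophagy genes Atg1 and Atg8a rose by 1.63 ± 0.23 and 2.72 ± 0.23.

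Genes of the lysosome list rose together, a list that also holds bmm, the lipid droplet lipase counted above under lipolysis. Of 30 tested, 22 rose and none fell (median 0.95), against 14 risen without fed replicate 1 and 12 without scaling. The cathepsin D gene cathD, a lysosomal protease, went from 88.1 and 119 to 627 and 1171 (3.05 ± 0.35, limma adjusted p = 8.5e-04). CtsB, cathepsin B, went from 7.23 and 7.48 to 52 and 86.2, and LManI, a lysosomal mannosidase, from 1.47 and 1.74 to 20.9 and 20. CtsL3, a cathepsin L homologue outside that list, was nearly off in fed larvae with 0.0458 and 0.0651 and stood at 181 and 358 at 4 h. By contrast 1 of 19 subunits of the vacuolar ATPase, which acidifies the lysosome, rose and 1 fell. None of 33 proteasome genes passed limma's test in either direction, 3 fell without scaling and 3 rose with quantile normalization. The smallest p among them was for Prosalpha1 (3.36 and 3.93 against 0 and 2.31, adjusted p = 0.11).

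**Figure D4:**
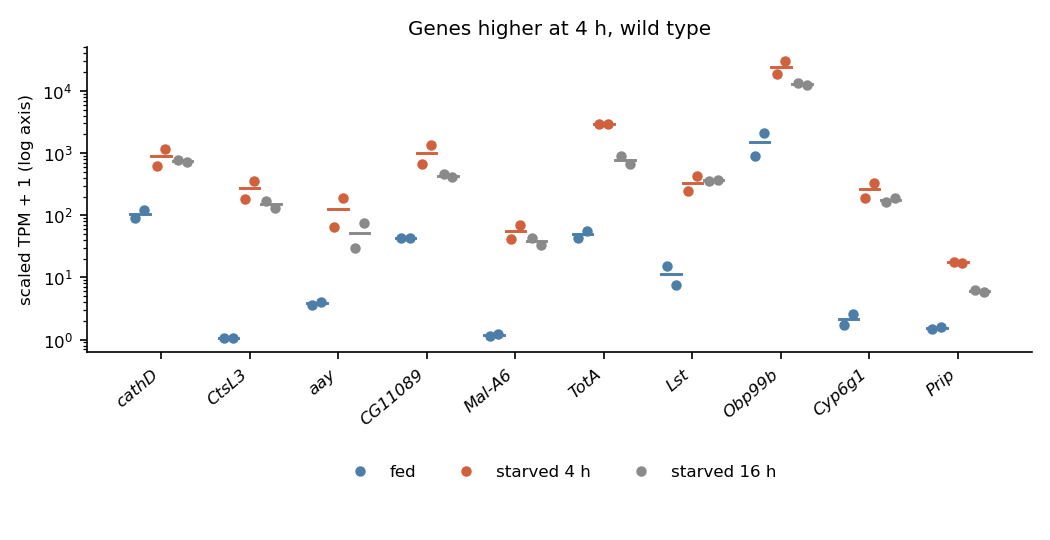
Scaled TPM plus 1 (log axis) of 10 genes that rose at 4 h, with 1 point per library and a line at the mean, for fed (blue), 4 h (red) and 16 h (grey) wild-type larvae. For each gene both 4 h points lie above both fed points, and Prip was lower again at 16 h.

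Of 44 genes of the secretory pathway and the unfolded protein response, 21 fell (47.7%) and 2 rose (4.55%), beside 26.6% and 21.1% of all genes. Fewer of the 44 fell without fed replicate 2, as over all genes. Among the falls were genes of the entry step and of glycosylation. Srp9, of the particle that brings ribosomes to the membrane, fell from 58.4 and 58.9 to 15 and 13.2, and Sec61gamma, of the channel they dock on, from 198 and 196 to 71.2 and 49.4. Stt3A, of the enzyme that transfers sugar chains, fell from 19.7 and 23.1 to 7.62 and 6.29. Hsc70-3, the lumenal Hsp70 known as BiP, had 128 and 194 in fed and 162 and 198 in starved libraries and did not pass. The mRNA of Xbp1, the response's main transcription factor, is cut by the sensor Ire1, which removes a short stretch and so opens the reading frame of the active protein. Xbp1 was chosen after its values were seen. In the annotation its transcript Xbp1-RE lacks 1 block of 23 bases that Xbp1-RD holds and encodes 498 residues in place of 307, as the cut form does.

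The cut form of Xbp1 made up 54.5% and 37.1% of the gene's summed isoform TPM in fed larvae and 5.1% and 6.7% at 4 h. In scaled TPM, Xbp1-RE went from 33.1 and 22.2 to 4.02 and 8.17, while Xbp1-RD went from 27.6 and 37.6 to 75.3 and 114. The isoform test passed (log2 ratio change -3.53 ± 0.36, limma adjusted p = 0.0032) and held with each library left out, up to an adjusted p of 0.016. The gene's summed level had 60.7 and 59.8 against 79.3 and 122 and did not pass (adjusted p = 0.1). At 16 h the share of Xbp1-RE was 7.2% and 10.1%. The 2 forms differ by so few bases that few reads tell them apart, and their shares are estimates by the authors' tool.

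Some secreted factors changed by large amounts. Lst, limostatin, a peptide hormone that lowers insulin release, had 14 and 6.45 in fed and 243 and 425 in starved libraries (4.93 ± 0.41, limma adjusted p = 2.7e-04). sun, a ligand through which the fat body signals to insulin-producing cells, fell from 236 and 147 to 67.6 and 41. Of 21 genes listed as fat body signals, Lst and sun among them, 7 rose (33.3%) and 5 fell (23.8%), beside 21.1% and 26.6% of all genes. Without scaling 3 rose and 6 fell. vkg and Col4a1, the collagen IV chains of basement membranes, which both fat body and haemocytes make, fell from 209 and 181 to 19 and 6.65 and from 213 and 175 to 27.1 and 15.2. They were the 2 that fell of 10 haemocyte markers, 4 of which rose, among them He, from 1.09 and 2.64 to 11.8 and 9.93.

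Humoral immune genes changed in either direction. Bomanins and Daisho peptides, short secreted effectors under the Toll pathway, rose in 11 of 17 cases and fell in 1 (7 rose without fed replicate 1), while their summed level overlapped between groups (3256 and 2678 in fed, 2265 and 4349 at 4 h). Dso2 was at 0.117 and 0.181 in fed and at 194 and 529 in starved larvae (8.13 ± 0.60, limma adjusted p = 1.8e-04), and its neighbour Dso1 at 0.0349 and 0.0803 against 138 and 707. Of 16 antimicrobial peptides tested 6 fell (37.5%) and 1 rose (6.25%), beside 26.6% and 21.1% of all genes, and fewer fell without fed replicate 2. The riser was Drs, drosomycin, an antifungal peptide, with 0.824 and 2.09 against 1299 and 4561 (limma adjusted p = 1.8e-04), most of the list's summed level at 4 h (612 and 1154 in fed, 1549 and 4765 at 4 h). CecC, a cecropin, went from 13.6 and 7.72 to 0.438 and 0.216. Turandot genes, stress peptides under JAK/STAT, rose in 4 of 5 tested. TotA had 42.6 and 54.2 against 2886 and 2950 (5.89 ± 0.23, adjusted p = 3.9e-05), with no overlap, and 880.2 and 663 at 16 h. Stat92E, the pathway's transcription factor, rose from 13.8 and 10.4 to 47.9 and 71.7 (2.20 ± 0.25). Of 30 genes of the Toll, Imd and JAK/STAT pathways 11 rose (36.7%) and 1 fell (3.33%), beside 21.1% and 26.6% of all genes. Without scaling 3 rose and 3 fell.

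Genes of late larval development rose with starvation. Of 28 ecdysone response genes, 10 averaged too little to be tested. Of the 18 tested, 16 rose (88.9%, beside 21.1% of all genes) and none fell (median 1.68). Without scaling 10 rose and 1 fell. The filter favours risers here, since a gene near 0 in fed larvae entered only through the starved libraries. Genes left out moved in either direction. ftz-f1 had 0.888 and 1.01 in fed and 0.442 and 0.151 at 4 h, and rpr 0.274 and 0.291 against 1.04 and 1.29. Eip78C, a nuclear receptor induced early by the hormone, went from 0.0268 and 0.0398 to 3.69 and 3.39 (2.13 ± 0.20, limma adjusted p = 4.4e-04), and Eip63F-1, a calcium-binding protein, from 2.01 and 1.22 to 16.2 and 17.3. Of 24 glue and late puff genes 15 passed the same filter, of which 11 rose and none fell. The list's summed level was 1023 and 3239 in fed larvae against 23926 and 25673 at 4 h. The salivary markers given above share the members that make up most of this sum. Sgs5bis, a glue protein homologue, had 0.913 and 0.231 against 690.3 and 1353. The storage protein Lsp2 went from 2373 and 5703 to 13545 and 19647, a rise that did not pass when fed replicate 1 (adjusted p = 0.061) or 4 h replicate 2 (adjusted p = 0.067) was left out, and Lsp1beta had 9395 and 17392 against 8920 and 9368 and did not pass. A difference in larval age between the groups was not tested, since the labels give none.

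Single genes of other hormone pathways also changed. Kr-h1, a target of juvenile hormone that represses metamorphosis, rose from 1.46 and 0.924 to 4.62 and 5.48 (1.47 ± 0.18, limma adjusted p = 0.0012). sro, an ecdysone synthesis gene of the prothoracic gland, went from 1.12 and 1.93 to 41.1 and 87.8 (4.62 ± 0.37, adjusted p = 2.3e-04), and 2 of the 3 tested markers of that gland rose. Of its 10 markers 4 were under 1 in all 4 libraries. Others stood out in 4 h replicate 1 alone, with phtm at 0.00958 and 0.0114 in fed and 5.11 and 0.00694 in starved libraries, and nvd at 0.045 and 0.0179 against 2.12 and 0.0727. Among clock genes vri, a repressor, rose from 0.261 and 0.296 to 6.26 and 6.85, and Pdp1, the activator it competes with, fell from 11.3 and 7.47 to 1.82 and 0.45. The time of day of sampling is not given in the labels, and its part was not tested.

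Some detoxification genes changed by large amounts. Of 54 cytochromes P450, 19 rose (35.2%) and 7 fell (13%), beside 21.1% and 26.6% of all genes. Without scaling 9 rose and 11 fell. Cyp6g1, known for insecticide resistance, rose from 0.723 and 1.56 to 191 and 331 (6.91 ± 0.34, limma adjusted p = 4.9e-05). Of 29 glutathione transferases 7 rose and 7 fell (24.1% each way), shares near those of all genes. GstD7 had the largest fall of any coding gene, from 151 and 71 to 0.249 and 0.105 (-6.48 ± 0.42, adjusted p = 1.2e-04), and its neighbour GstD6 fell from 31.2 and 18.2 to 0.562 and 0.646. GstE3 rose from 36 and 45.8 to 347 and 841. Of 20 redox genes 3 rose (15%) and 6 fell (30%), also near the background. Cat, catalase, rose from 60.3 and 75.6 to 199 and 271, and Prx2, a cytosolic peroxiredoxin, fell from 365 and 367 to 35.8 and 25.

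Genes of DNA replication fell in 27 of 37 cases and rose in 2. PCNA, the sliding clamp, went from 22.9 and 33.6 to 4.71 and 3.2 (-2.55 ± 0.26, limma adjusted p = 5.6e-04), and Cdc45, of the replicative helicase, from 8.47 and 9.97 to 1.14 and 0.977. Fat body cells replicate without dividing, and their growth is known to depend on feeding. Markers of other tissues moved in either direction, and the rise of salivary gland markers is given above. Of 17 muscle markers 14 fell and 1 rose (9 fell without fed replicate 1), with Act57B, an actin of larval muscle, at 53.6 and 38.8 against 6.08 and 1.28. Of 15 midgut markers 5 fell (33.3%, near the 26.6% of all genes), all digestive proteases, and Mal-A6 rose. Among the 5, Jon65Aiv had 52.5 and 101 against 0.128 and 0.118. Of 18 cuticle genes tested 7 fell (38.9%) and 2 rose (11.1%), beside 26.6% and 21.1% of all genes. The summed level of the cuticle list was 347 and 192 in fed larvae and 1042 and 2123 at 4 h, there nearly all Cpr49Ac. Cpr49Ac, a cuticle protein gene, ran from 34.5 and 42.7 to 1001 and 2102 (5.20 ± 0.38, adjusted p = 1.7e-04), while Lcp65Ab1 ran from 66.5 and 28.4 to 1.17 and 0.146.

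Some genes that changed the same way lay side by side. Taking tested genes in map order, there were 31 runs of 4 or more neighbours that all rose, holding 149 of the 1759 risen genes, and 57 that all fell, holding 301 of 2220. How many such runs gene order alone would give was not computed. The longest falling run, 17 genes on chromosome arm 2R, was the Uhg1 host with its 14 snoRNAs and 2 coding neighbours, and snoRNA hosts also made the run of Uhg5 (12 genes, 2R). Runs of this kind count overlapping transcripts and copies, as does that of 12 histone genes on 2L, where His2A and His2B copies have like values. Others joined unrelated coding genes, such as 9 on 3R from Idh3b to pit, a nucleolar helicase gene that went from 37.8 and 37.6 to 2.01 and 1.37. The longest rising run was of 11 genes on 2R from Cyp6d2 to CG30273 (median log2 difference 2.42). Next were 9 genes on 3L around the ecdysone-induced gene Eig71Ee, and 6 on 2R in the tetraspanin cluster, where Tsp42Ep went from 0.447 and 0.597 to 148 and 335 (7.20 ± 0.36, limma adjusted p = 5.1e-05). By arm, the share that rose lay between 20.4% (X) and 22.5% (2L) on the large arms, and the share that fell between 25.4% (2R) and 29.2% (3R).

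Isoform use was tested as well. Of 5289 isoforms tested in 1995 genes, 941 (17.8%) changed their share by limma's test at an adjusted p under 0.05, 9.47% upwards and 8.32% downwards. The count was 284 when only the 4 libraries compared entered the fit and 1537 with an offset of 5 TPM in place of 1. In 721 of the 941 (13.6% of all 5289 isoforms tested), in 424 genes, the groups did not overlap and the share moved the same way. With 1 library left out the isoform count was 367 (fed replicate 1), 368 (fed replicate 2), 782 (4 h replicate 1) or 555 (4 h replicate 2). A risen and a fallen isoform were found together in 238 genes. For 105 of these the start sites lay over 50 bases apart and the ends did not, for 49 only the ends did, for 14 both did and for 70 neither did. The riser's 3′ UTR was longer by over 50 bases in 45 genes and shorter in 34. The summed level of the gene rose in 78 cases, fell in 96 and did not pass in 64. Alternative ends bear on the study's question, since cleavage factor I takes part in the choice of polyadenylation site.

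Changes of start site gave some of the largest shifts. Adh, alcohol dehydrogenase, is a textbook case of a gene with a pair of promoters in tandem. Adh-RC made up 2.6% and 2.6% of it in fed larvae and 85.1% and 97.4% at 4 h, and Adh-RE 95.9% and 96.3% against 12% and 1.2%. The test for Adh-RC gave a limma adjusted p of 0.0033. Starts of these isoforms lie 715 bases apart and their ends coincide. The gene's level, 1541 and 1120 against 842 and 1483, did not pass (log2 difference -0.23 ± 0.39), so the start changed with no detected change in output. The neighbouring gene Adhr has isoform starts that also lie 715 bases apart. Whether both genes share these starts was not checked, so Adhr may not be a separate shift. Adhr-RA was listed at 0% in both fed libraries and at 100% in both starved ones. The purine gene CG11089 changed both level and start: CG11089-RB went from 5.3% and 7% to 97.1% and 98.3% (adjusted p = 4.9e-04), with starts 1999 bases apart. CG17574-RH fell from 84.8% and 84.3% to 3.3% and 1.5%, and its partner CG17574-RA starts 7425 bases away. In CG34276 both sites differed: CG34276-RB, which gained 99.3 percentage points, starts 588 bases and ends 849 bases away from CG34276-RA.

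Changes of 3′ end were also seen, in both directions. EMC2A-RA, of the membrane protein insertion complex, went from 0.5% and 0% to 100% in both starved libraries. It differs from EMC2A-RB by a 3′ end 141 bases further on, with the gene at 6.86 and 6.42 against 4.75 and 6.54. CG1943-RA, the form that ends 190 bases earlier, went from 0% in both fed libraries to 85.6% and 94.4%. CG7564-RD, whose 3′ end lies 7804 bases beyond that of CG7564-RB, went from 31.3% and 11.4% to 100% in both starved libraries (limma adjusted p = 0.01). Shares of exactly 0% or 100% are estimates at the edge of their range and can come from few reads.

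**Figure D5:**
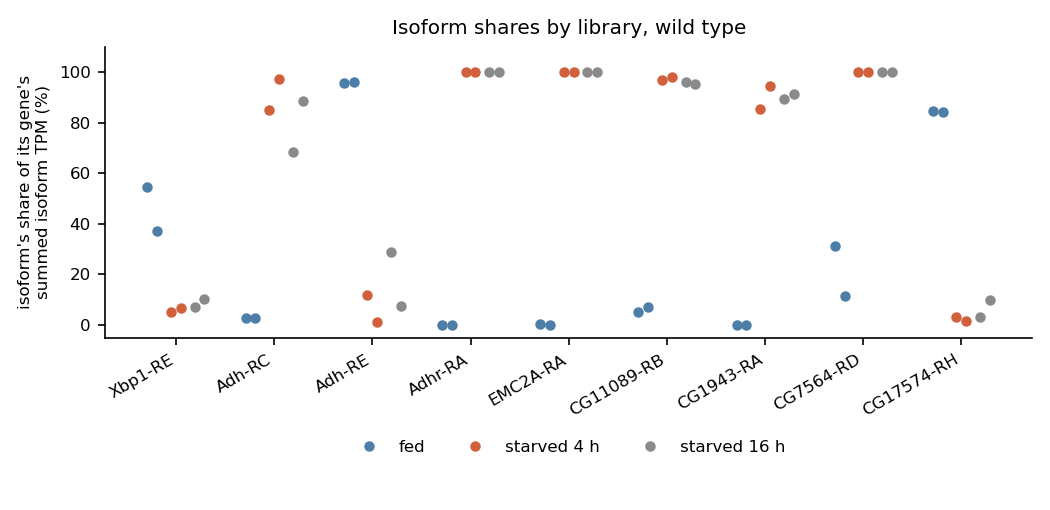
Share of each isoform in its gene's summed isoform TPM (vertical axis, percent), with 1 point per library for fed (blue), 4 h (red) and 16 h (grey) wild-type larvae. Xbp1-RE, the cut form, stands at 54.5% and 37.1% in fed larvae and at 10.1% or lower in all 4 starved libraries, and Adh-RC and Adh-RE change places.

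The 4 h libraries were also set directly against those at 16 h. In that test 3 genes were higher at 4 h (0.036% of those tested) and none lower, by limma at an adjusted p under 0.05, with 1337 genes at an unadjusted p under 0.05. CG13135, an uncharacterised gene, was at 0.0857 and 0.0501 in fed larvae, 20.9 and 27.7 at 4 h and 0 and 0.0664 at 16 h. Its difference of 4 h from 16 h was 4.60 on the log2 scale (adjusted p = 0.0017). Prip, an aquaporin homologue, had 0.481 and 0.583, then 16.7 and 16.3, then 5.21 and 4.81 (adjusted p = 0.023 between 4 h and 16 h). bdg, a neurotransmitter carrier homologue, had 2.25 and 2.36, then 5.47 and 5.45, then 1.36 and 1.16 (adjusted p = 0.023). Under other settings the test gave between 0 and 23 calls, and their balance turned: 1 was higher and 2 lower after rescaling over coding genes, and 8 were higher and 15 lower without 16 h replicate 2. So few calls do not show that levels were alike. The comparison shares its 4 h libraries with that against fed larvae.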

How the data were processed

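Per the labels' protocols, Trizol was used for extraction, and the stranded kit for total RNA included depletion of ribosomal RNA (Ribo-Zero Gold). STAR 2.5.3 and the fly build BDGP6 are named in the submitters' processing notes. Which quantifier and annotation were used, and whether strand was, is not given in the sources used here. As TPM, the authors deposited values for 17471 genes and 34485 transcripts, 1 column per sample, with no pooling. Since TPM hold no read numbers, library depth is unknown and no counting interval was computed.

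From these, TPM were divided by a median-of-ratios factor over the 5393 genes that reached 1 TPM in every library. Those 8332 genes that averaged at least 1 scaled TPM entered limma 3.58.1 (R 4.3.3) as log2(scaled TPM + 1), fitted by group, with all 8 libraries in the fit, trended moderation, two-sided tests and Benjamini-Hochberg adjustment at 0.05. All 8 libraries were used so that 4 residual degrees of freedom estimate the spread. The smallest two-sided p of an exact permutation test is 0.333 at 2 against 2. Isoforms that averaged 5% to 95% of a gene, in genes that averaged at least 5 TPM, were tested on the log2 ratio of the isoform's TPM to that of the gene's remaining isoforms, each plus 1. The fit was tested on simulated data.

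Names, chromosome arms and transcript structures came from a later BDGP6 annotation, which 17249 gene identifiers matched directly. Another 132 were matched through a current gene whose isoforms summed to the same values within a relative tolerance of 0.0001, and 90 kept their identifier.

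The gene lists, the comparison and the tests were chosen with earlier results of these data known, so no list was tested as a set and lists are described by counts. One gene, catalase, was taken out of the amino acid carrier list after values were seen, since it is no carrier. For each list up to 6 members were eligible for naming, those that passed with the largest difference and with groups apart, and the 15 largest rises and falls among coding genes, the 12 most abundant genes of each group, the 5 largest noncoding changes, the genes of the 5 longest runs and the 8 largest isoform changes each way. Genes named otherwise are described as values. Promoter sequences were not used here.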

Additional observations from a re-analysis of the deposited data

How the results depend on the processing

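No paired analysis was possible because the labels give no replicate numbers. Genes that changed numbered 2470 in all, 1057 higher and 1413 lower, with a filter at a mean of 5 (fewer genes tested), and 812 were higher without scaling and 1008 after rescaling over coding genes. With 1 library left out the ranges were 2683 to 3903 in all, 1068 to 1713 higher and 1575 to 2190 lower. Of the 3979 genes called, 2427 were called with every library left out in turn. Isoform calls numbered 1537 with an offset of 5 TPM, 341 in genes at 20 or more TPM, 572 at a mean share of 10% to 90%, 284 from only the 4 libraries compared, and 367 to 782 with 1 library left out. The test of 4 h against 16 h gave 14 calls without scaling, 13 with quantile normalization, 0 from only the 4 libraries compared, 3 after rescaling over coding genes (1 higher, 2 lower) and 0 to 23 with 1 library left out (8 higher and 15 lower without 16 h replicate 2, against 3 higher and 0 lower with all libraries). Of 69 lists with 5 or more tested members, 32 had most of these called in 1 direction, against 20 with no filter on low values and 20 to 28 with 1 library left out. Of 471 genes eligible for naming, 451 passed, 373 of them with every library left out in turn and 402 under all 3 other scalings. Causes of these changes were not tested beyond what the filters themselves remove. Depth is unknown and limits what low values can show.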
